A study of Mus musculus with 7 samples.

Results

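The genes described here encode the constitutive proteasome, the protease complex that degrades most proteins of a cell, together with the factors that assemble and regulate it. The 42 genes were chosen by symbol from the 55416 gene identifiers of the count files, and each symbol matched 1 identifier. They comprise 14 subunits of the 20S core, 18 subunits of the 19S cap, 3 chaperones of cap assembly, 3 chaperones of core assembly, 3 activators or inhibitors of the core and the transcription factor Nfe2l1. The subunits that replace their constitutive counterparts in the immunoproteasome, Psmb8, Psmb9 and Psmb10, were not members. RNA-seq of hippocampus was available from 7 libraries of male outbred CD1 mice. Control mice (3 libraries, replicates 1 to 3) were untreated. DMSO-treated mice (2 libraries, replicates 2 and 3) received the vehicle intraperitoneally. ONX-0914-treated mice (2 libraries, replicates 1 and 2) received 10 mg/kg of ONX-0914, an inhibitor of the immunoproteasome, by the same route, and both injected groups were treated 2 times a week for 2 months. The sources used here give no age beyond age matching, and do not say whether a library came from 1 mouse, so the p-values below measure the spread between these libraries.

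The 20S core is a barrel of outer alpha rings, which control entry, and inner beta rings, which hold the proteolytic sites. Psmb5 carries the chymotrypsin-like site, Psmb6 the caspase-like site and Psmb7 the trypsin-like site. The 19S cap recognises ubiquitinated proteins: the ATPases of its base unfold them and push them into the core, and its lid removes the ubiquitin chains. In neurons the complex supports the protein turnover on which synaptic plasticity depends. When the proteasome is inhibited, the transcription factor encoded by Nfe2l1 is processed and induces the subunit genes together, through antioxidant response elements in their promoters.

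The libraries differed before any proteasome gene was considered. Counts assigned to genes totalled between 2842675 and 3877006 in 6 libraries and 13782270 in ONX-0914 replicate 2. The 10 markers of hippocampal neurons summed to between 1275 and 1338 CPM (counts scaled to library size) in control and to 296 CPM in ONX-0914 replicate 1, where all 10 were below every control library. In the same library the 10 thalamic markers summed to 1204 CPM (122 to 134 in control) and the 10 striatal markers to 1442 CPM (245 to 278 in control), so this library went against its hippocampus label. In ONX-0914 replicate 2 the hippocampal markers summed to 1020 CPM, with 3 of 10 above every control library and 6 below. There the thalamic markers summed to 168 CPM (7 above, 2 below) and the striatal markers to 213 CPM (4 above, 2 below). The 6 markers of choroid plexus had 1 above and 2 below in replicate 1 and 3 above in replicate 2. Mitochondrially encoded genes took 1.55% and 3.71% of counts in the ONX-0914 libraries, both above control (0.818% to 1.24%). The 5 blood genes summed to 96.4 and 837 CPM in the respective ONX-0914 libraries (30.02 to 40.1 in control), with 4 above control in each. The 8 microglial markers summed to 352 CPM in replicate 1 (6 above, 1 below) and 504 CPM in replicate 2 (6 above, 2 below), against 291 to 316 in control. The 8 oligodendrocyte markers summed to 9969 CPM in replicate 1 (7 above) and 4495 CPM in replicate 2 (1 above, 4 below), against 5063 to 7619 in control. Of 8 astrocyte markers 7 were below every control library in replicate 2 (2501 CPM in sum, 3459 to 4040 in control), whereas replicate 1 had 3973 CPM (5 above, 2 below). All 6 endothelial markers were above control in both ONX-0914 libraries (266 and 270 CPM, 148 to 164 in control). The part of these differences in the results below was not tested, and fewer cells of a type cannot be told apart from less RNA per cell. Results are given for each ONX-0914 library.

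All 42 genes passed the filter on low counts, with between 10 and 4038 counts in a library. In the comparison of ONX-0914-treated with control mice no proteasome gene was a DEG (false discovery rate, FDR, under 0.05 by edgeR's quasi-likelihood test over 13152 genes). Of all genes tested 0.114% were DEGs, 0.038% higher and 0.076% lower. At an unadjusted p under 0.05 there were 4 members, Psmb5, Psmb2, Psmc6 and Psmg2, against 18.6% of all genes. DESeq2 called 1 member, Psmb5 (all genes 2.95%), and limma voom called 0 (all genes 0.137%). The median Log2FC of the members was -0.061 and that of all genes 0.046, with 17 member values above 0 and 25 below. Scaling by total counts, which moved the median of all genes by 0.14, put the members' median at 0.074, again lower than that of all genes (0.19). The lowest FDR among the members was 0.105, for Psmb5.

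The plot of each gene's difference from the control mean shows how unlike the ONX-0914 libraries were. In replicate 1 no member differed 2-fold from the control mean, against 11.4% of all genes, and the differences had an SD of 0.25 on the log2 scale over the 42 genes (0.70 over all genes). In replicate 2, 7 members were at least 2-fold lower and 4 at least 2-fold higher, 26.2% of members against 19% of all genes, and the SD was 0.95 (0.83 over all genes). Control libraries gave SDs of 0.09 to 0.12 over the members, and DMSO-treated libraries 0.16 and 0.17. In the DMSO-treated libraries no member differed 2-fold, against 2.86% and 3.92% of all genes. ONX-0914 replicate 1 was below every control library for 15 members (all genes 32.3%) and above for 13 (all genes 36.8%). ONX-0914 replicate 2 was below for 21 members (all genes 38.8%) and above for 14 (all genes 40%). The 42 genes together took 0.492% to 0.511% of counts in control, 0.529% and 0.551% with DMSO, 0.548% in ONX-0914 replicate 1 and 0.369% in replicate 2.

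**Figure D1:**
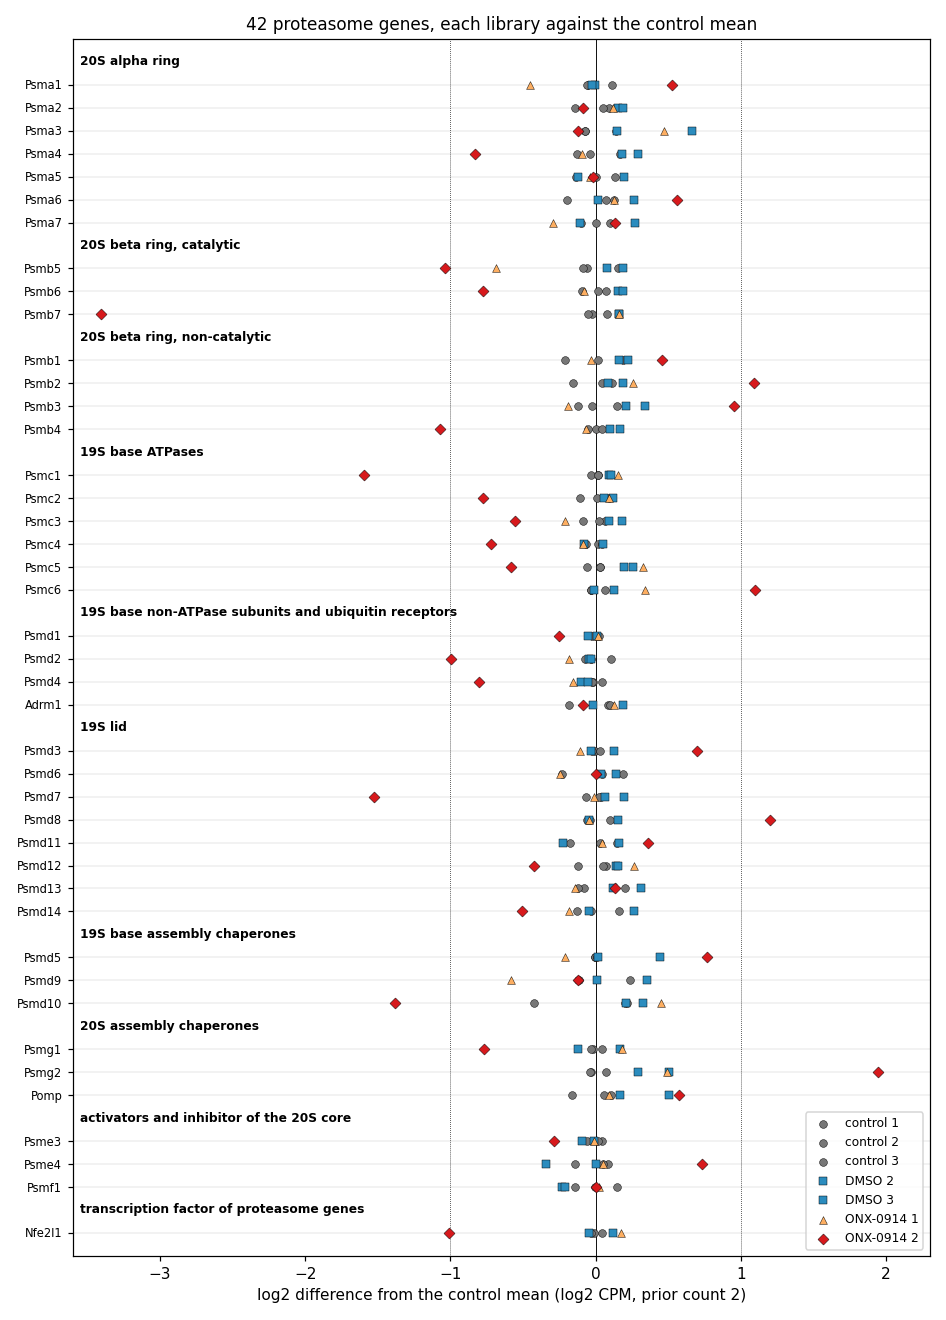
Difference of each library from the control mean (x axis, log2 CPM with a prior count of 2) for the 42 proteasome genes, grouped by role. Circles are control, squares DMSO-treated and triangles and diamonds ONX-0914-treated libraries, and dotted lines mark 2-fold. Triangles (ONX-0914 replicate 1) stay within 2-fold for all genes, whereas diamonds (ONX-0914 replicate 2) reach -3.40 for Psmb7 and 1.95 for Psmg2.

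Psmb5, which carries the chymotrypsin-like site, had the lowest ONX-0914 Log2FC of the 42 genes in edgeR's fit of all 7 libraries. By limma voom Psmb7 was lower against control (-1.49, and -0.90 for Psmb5). The Log2FC of Psmb5 was negative with either ONX-0914 library alone. Its level was 47.4, 55.1 and 46.5 CPM in control, 52.3 and 56.4 CPM in DMSO-treated mice, and 30.7 and 23.9 CPM in ONX-0914-treated mice. The ONX-0914 libraries therefore lay below all 5 others. The Log2FC was -0.87 ± 0.19 (SE, n = 2 against 3; edgeR FDR = 0.105) against control and -1.002 ± 0.21 (edgeR FDR = 0.132) against DMSO, so neither passed the threshold. DESeq2 gave -0.89 with an FDR of 0.0381 against control and -1.02 with an FDR of 0.0325 against DMSO. Over all alternatives the FDR ran from 1.54e-05 to 0.407 against control and from 1.14e-05 to 0.738 against DMSO. With replicate 2 left out the edgeR Log2FC against control was -0.70 (FDR = 0.00972), and with replicate 1 left out it was -1.07 (FDR = 1.54e-05). In both of these fits the lone ONX-0914 library was assumed to vary like the other groups, and 19% and 51.2% of all genes were DEGs. The reading of Psmb5 is limited by a named pseudogene, Psmb5-ps, at 0 counts in the 7 libraries, since the treatment of reads matching both is not given in the sources used here.

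The other catalytic subunits did not repeat this pattern. Psmb6 stood at 138, 144 and 128 CPM in control and at 152 and 156 CPM with DMSO. With ONX-0914 it stood at 129 and 79.8 CPM, and of these only replicate 2 lay outside the control range. The fitted Log2FC of Psmb6 was -0.39 ± 0.22 against control (edgeR FDR = 0.36), and -0.084 without replicate 2. Psmb7, the most abundant core gene per kb of exon in control, was at 568, 529 and 521 CPM in control, 604 and 603 CPM with DMSO, and 602 and 50.6 CPM with ONX-0914. The ONX-0914 libraries thus stood on opposite sides of control, 1.12-fold above and 10.7-fold below the control mean. A Log2FC over such values, -0.73 ± 0.76 for Psmb7 (edgeR FDR = 0.618), describes neither library. It was -1.49 by limma voom, and 0.16 by edgeR without replicate 2. Psmb7 shares exon bases with Nek6 on the opposite strand, and its pseudogene Psmb7-ps2 had 3 counts in all. Psmb6 has the named pseudogenes Psmb6-ps and Psmb6-ps2, each at 0 counts in the 7 libraries. The limit given for Psmb5 therefore applies to Psmb6 too.

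**Figure D2:**
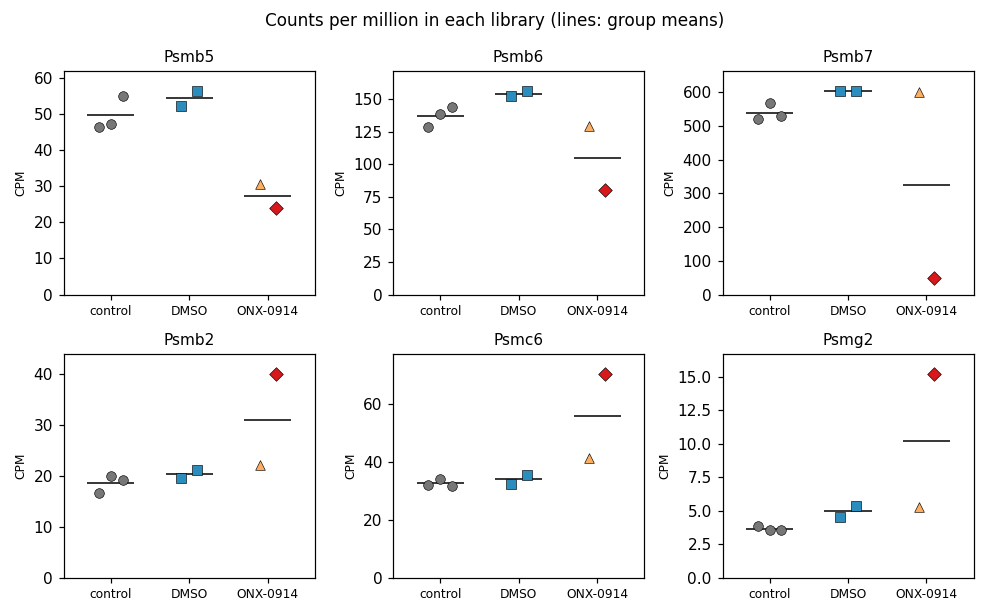
CPM (y axis, from 0) in each library for the catalytic subunits Psmb5, Psmb6 and Psmb7 and for the 3 members with both ONX-0914 libraries above control. Points are libraries and lines are group means. Psmb5 is lower in both ONX-0914 libraries, Psmb7 is at 50.6 CPM in replicate 2 alone, and Psmb2, Psmc6 and Psmg2 are above control in both.

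The promoters of Psmb5 and Psmb6 are shown because both hold the core of the antioxidant response element, the sequence class through which Nfe2l1 acts, and that of Psmc6 because this ATPase gene, which holds the element on the other strand, lay above control in both ONX-0914 libraries. Each is the run of 250 bases before the start site in RefSeq (assembly GRCm38.p6, an older build than the GRCm39 of the counts), written 5′ to 3′ on the gene's strand with the element core (TGACNNNGC on either strand) in capitals. The Psmb5 stretch is chr14:54617996-54618245 (minus strand), that of Psmb6 chr11:70525107-70525356 (plus strand) and that of Psmc6 chr14:45329574-45329823 (plus strand).
Psmb5: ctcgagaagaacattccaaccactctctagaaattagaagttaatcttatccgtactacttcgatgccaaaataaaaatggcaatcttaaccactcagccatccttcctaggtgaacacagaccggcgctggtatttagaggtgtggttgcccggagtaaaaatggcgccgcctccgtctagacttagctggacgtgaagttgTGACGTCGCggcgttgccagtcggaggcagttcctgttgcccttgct
Psmb6: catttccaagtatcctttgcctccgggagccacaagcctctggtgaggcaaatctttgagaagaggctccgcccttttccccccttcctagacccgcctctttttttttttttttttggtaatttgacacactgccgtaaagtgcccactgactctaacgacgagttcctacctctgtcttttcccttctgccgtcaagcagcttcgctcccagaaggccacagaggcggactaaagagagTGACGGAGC
Psmc6: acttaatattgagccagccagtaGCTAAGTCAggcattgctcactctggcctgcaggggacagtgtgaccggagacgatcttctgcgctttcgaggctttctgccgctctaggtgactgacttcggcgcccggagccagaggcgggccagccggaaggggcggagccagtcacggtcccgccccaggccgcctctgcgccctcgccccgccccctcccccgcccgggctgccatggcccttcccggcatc
The match begins 47 bases before the start in Psmb5, 9 bases before it in Psmb6 and 227 bases before it in Psmc6. RefSeq promoters were matched for 35 of the 42 genes, and 6 of them (17.1%) held the core: Psmb5, Psmb6, Psmc6, Adrm1, Psmd9 and Psmd12. The core was in 11.5% of the 27025 genes with a RefSeq promoter. On the gene's own strand alone the shares were 11.4% and 6.04%, and with up to 1 base off 94.3% and 87.9%. Of the members holding the element, Psmb5 was lower and Psmc6 higher than control in both ONX-0914 libraries. For Psmb6, Adrm1, Psmd9 and Psmd12 the ONX-0914 libraries were not both on the same side of control. Their Log2FC values against control were -0.39, 0.014, -0.33 and -0.050. The part of the element in these values was not tested. The CCAAT box (CCAAT on either strand) was in 14 of the 35 (40%, all genes 37.5%) and the GC box (GGGCGG on either strand) in 21 (60%, all genes 35.4%). The median share of G and C bases was 57.6% in the members' promoters and 52% in those of all genes. Its part in the GC box shares was not tested. These matches are letters in a window and say nothing of binding.

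Among the 4 non-catalytic subunits of the beta rings, Psmb2 lay above control and Psmb4 below it in both ONX-0914 libraries. Psmb2 was at 19.97, 19.1 and 16.5 CPM in control, 19.6 and 21.1 CPM with DMSO and 22.1 and 39.8 CPM with ONX-0914, so both treated libraries exceeded every other library, replicate 1 by little. Its Log2FC against control was 0.77 ± 0.27 (edgeR unadjusted p = 0.0208, FDR = 0.2), and 0.26 without replicate 2. Psmb4 was at 240, 246 and 231 CPM in control, 256 and 268 CPM with DMSO and 228 and 113 CPM with ONX-0914, both below control but replicate 1 by only 1.05-fold of the mean. The fit gave -0.49 ± 0.27 for Psmb4 (edgeR FDR = 0.364), and -0.069 without replicate 2. In ONX-0914 replicate 2, Psmb1 (126 CPM, control 79.3 to 105) and Psmb3 (43.3 CPM, control 20.4 to 24.5) were above every control library, whereas in replicate 1 Psmb1 was within the control range and Psmb3 below it.

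Among the 7 alpha ring genes the Log2FC values ran from -0.43 to 0.36 with a median of 0.02, and no unadjusted p was under 0.05. Psma4 had the smallest p among them, with 98.4, 85.1 and 79.9 CPM in control, 99 and 107 CPM with DMSO and 81.8 and 48.97 CPM with ONX-0914. Its treated libraries overlapped control through replicate 1, and the Log2FC was -0.43 ± 0.24 (edgeR FDR = 0.354), or -0.099 with replicate 2 left out. Psma5 was within the control range in both ONX-0914 libraries, with 42.8 to 51.5 CPM in control and 45.8 and 46.5 CPM with ONX-0914. Psma2 was at 83.1, 70.3 and 80.7 CPM in control and 84.6 and 73.4 CPM with ONX-0914, and Psma6 at 62.7, 60.3 and 50.1 CPM in control and 62.7 and 84.8 CPM with ONX-0914. For Psma1, Psma3 and Psma7 the ONX-0914 libraries lay on opposite sides of control. Psma1 was at 40.8 to 45.99 CPM in control and 30.96 and 61.5 CPM with ONX-0914, and Psma7 at 60.6 to 69.8 CPM in control and 53.1 and 71.4 CPM with ONX-0914. Psma3 was at 93.4, 80.4 and 80.4 CPM in control, 118 CPM in replicate 1 and 77.8 CPM in replicate 2, and DMSO replicate 3, at 134 CPM, exceeded all of them.

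Of the 6 ATPases of the cap base, Psmc6 had a positive Log2FC and the other 5 a negative one. Psmc6 was at 34.2, 31.9 and 31.9 CPM in control, 32.5 and 35.7 CPM with DMSO and 41.5 and 70.4 CPM with ONX-0914. Both treated libraries exceeded the other 5. The Log2FC of Psmc6 was 0.79 ± 0.24 (edgeR unadjusted p = 0.00979, FDR = 0.16) against control, and 0.35 without replicate 2. Psmc4 was at 133, 135 and 126 CPM in control, 124 and 136 CPM with DMSO, and 124 and 79.4 CPM with ONX-0914, with a Log2FC of -0.38 ± 0.21 (edgeR FDR = 0.36), and -0.090 without replicate 2. Psmc3 stood at 237, 231 and 214 CPM in control and at 196 and 154 CPM with ONX-0914, below all 5 other libraries. Exons of Psmc3 share bases with Slc39a13 on the opposite strand. Psmc2 was within the control range in replicate 1 (169 CPM, control 148 to 169.7) and at 92.5 CPM in replicate 2. Psmc1 and Psmc5, the most abundant members per kb of exon in control, had ONX-0914 replicate 1 above control and replicate 2 below it. For Psmc1 these were 505 and 150 CPM against 458, 443 and 459 CPM in control, and for Psmc5 301 and 159 CPM against 244, 244 and 230.2 CPM. In replicate 2, 5 of the 6 ATPases were below every control library (all genes 38.8%) and Psmc6 was above (all genes 40%).

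Of the other base subunits, the scaffold Psmd2 and the ubiquitin receptor Psmd4 were below control in both ONX-0914 libraries. Psmd2 was at 391, 381 and 430 CPM in control, 387 and 391 CPM with DMSO and 352 and 200 CPM with ONX-0914, with a Log2FC of -0.54 ± 0.25 (edgeR FDR = 0.282), or -0.19 without replicate 2. Psmd4 was at 154, 154 and 161 CPM in control, 146 and 150 CPM with DMSO and 140 and 89.1 CPM with ONX-0914, with a Log2FC of -0.45 ± 0.21 (edgeR FDR = 0.291), or -0.16 without replicate 2. Both of its DMSO-treated libraries were also below control. The scaffold Psmd1 was at 140 to 145 CPM in control and 144 and 119 CPM with ONX-0914. The receptor Adrm1 was at 33.6 to 40.9 CPM in control and 41.8 and 35.9 CPM with ONX-0914.

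In the lid, Psmd14, the deubiquitinase that removes the ubiquitin chain, had both ONX-0914 libraries below all others, at 77.5 and 61.8 CPM against 98.4, 86.2 and 80.4 CPM in control and 85.3 and 106 CPM with DMSO. Its partner Psmd7 was within the control range in replicate 1 (270 CPM, control 261 to 280) and at 94.5 CPM in replicate 2. Psmd8 went the other way there, with 41.7, 37.9 and 37.5 CPM in control, 43.5 and 37.8 CPM with DMSO, and 37.8 and 90.2 CPM with ONX-0914. The Log2FC of Psmd8, 0.73 ± 0.32 (edgeR FDR = 0.272), came from replicate 2, and it was -0.05 without that library. Psmd3 was at 66.9 CPM in replicate 1 and 117 CPM in replicate 2 (control 71.05 to 73.6), and Psmd12 at 94.9 and 58.7 CPM (control 72.5 to 83.1). Psmd6 was at 51.8 to 69.5 CPM in control and 51.3 and 60.9 CPM with ONX-0914, Psmd11 at 47.8 to 59.8 CPM and 55.6 and 69.6 CPM, and Psmd13 at 61.7 to 77.01 CPM and 60.7 and 73.4 CPM, so that for each of these 3 genes a treated library lay inside the control range. Over the 8 lid genes the Log2FC ran from -0.59 to 0.73 with a median of -0.026.

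Assembly factors held the highest Log2FC of the 42 genes and no common direction. Psmg2, a chaperone of alpha ring assembly, was the least abundant member per kb of exon in the 3 control libraries, with 3.57, 3.54 and 3.86 CPM in control, 4.56 and 5.35 CPM with DMSO, and 5.29 and 15.2 CPM with ONX-0914. All 4 libraries of injected mice lay above control, and ONX-0914 replicate 1 was within the DMSO range. These values rest on 10, 13 and 14 counts in control, 17 and 15 with DMSO, and 21 and 230 with ONX-0914. The Log2FC of Psmg2 was 1.57 ± 0.45 against control (edgeR unadjusted p = 0.00829, FDR = 0.154), and 1.61 with an FDR of 0.0346 in the fit without a low-count filter, where 2.15% of all genes were DEGs. It was 0.52 without replicate 2, and over all alternatives the FDR ran from 3.20e-06 to 0.503. Its partner Psmg1 was at 18.2, 17.99 and 19.002 CPM in control and at 20.9 and 10.6 CPM with ONX-0914, on opposite sides. Pomp, the chaperone that carries the beta subunits into the maturing core, was at 58.5, 48.5 and 56.5 CPM in control, 77.3 and 61.04 CPM with DMSO and 57.9 and 81.2 CPM with ONX-0914. Its Log2FC was 0.36 ± 0.21 (edgeR FDR = 0.379), and 0.089 with replicate 2 left out. Of the base chaperones, Psmd5 had 22.1 and 44.1 CPM with ONX-0914 on either side of control (25.7, 25.6 and 25.9 CPM) and a Log2FC of 0.39 ± 0.29 (edgeR FDR = 0.488). Psmd10 had 55.9 and 15.4 CPM in the reverse order (control 47.4, 46.9 and 30.3 CPM). Psmd9, next to Psmg2 in control and itself the lowest per kb of exon in DMSO replicate 2 and both ONX-0914 libraries, was at 12.3 and 17.1 CPM, against 17.1, 17.2 and 22.03 CPM in control.

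Of the activator and inhibitor genes, Psme4, which encodes a large activator cap of the core, had the smallest p. It was at 28.2, 32.99 and 32.2 CPM in control, 24.4 and 31.1 CPM with DMSO and 32.2 and 51.9 CPM with ONX-0914, only replicate 2 being clear of control, with a Log2FC of 0.45 ± 0.24 (edgeR FDR = 0.351), or 0.039 without replicate 2. The nuclear activator Psme3 was at 135 to 146 CPM in control and 140 and 115 CPM with ONX-0914, and the inhibitor Psmf1 at 26.2 to 32.2 CPM and 29.4 and 29.1 CPM. Nfe2l1 was at 535, 525 and 554 CPM in control, 585 and 522 CPM with DMSO, and 608 and 267 CPM with ONX-0914. The treated libraries were on opposite sides of control, and the Log2FC was -0.30 ± 0.31 (edgeR FDR = 0.618), or 0.17 without replicate 2. RNA levels do not show the processing that activates this factor.

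Counted over all 42 genes, both ONX-0914 libraries lay below every control library for 7 (16.7%): Psmb5, Psmb4, Psmc3, Psmc4, Psmd2, Psmd4 and Psmd14. Of all genes 16.3% did so. The same 7 were also below both DMSO-treated libraries, against 11.3% of all genes. Both ONX-0914 libraries were above control for 3 members (7.14%; all genes 16.9%), and above DMSO as well for 2 (4.76%; all genes 11.4%). On opposite sides of control were 13 members (31%), against 23.4% of all genes, and in 8 of these replicate 2 was the lower library. The share below control was thus near that of all genes. With total counts as the scale, 4 members were below (9.52%, all genes 10.6%) and 7 above (16.7%, all genes 25.1%).

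**Figure D3:**
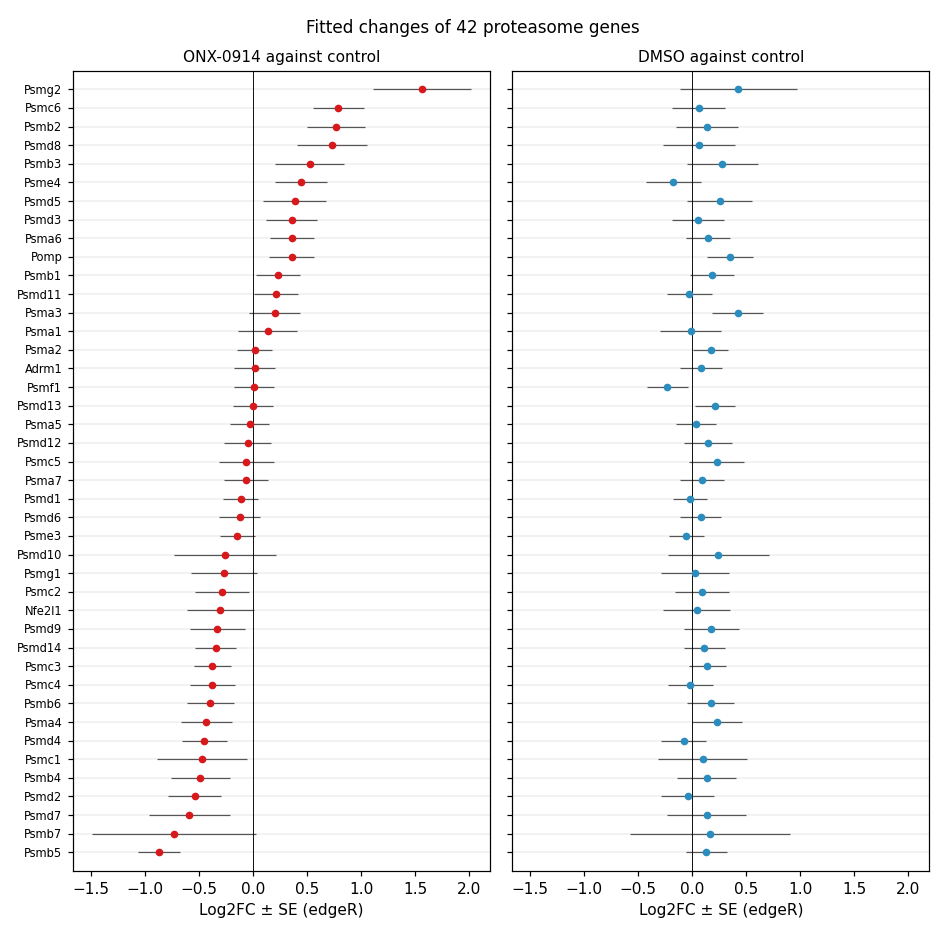
Fitted Log2FC with its SE (x axis, edgeR) for the 42 genes in ONX-0914 against control (left) and DMSO against control (right), in the order of the left panel. No gene passed an FDR of 0.05 in either panel, and the right panel has 33 values above 0 and 9 below.

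When a single ONX-0914 library was fitted, the count of calls depended on which was kept. With replicate 1 kept, 2 members were DEGs against control (4.76%, all genes 19%, 9.52% higher and 9.5% lower): Psmb5, and Psma3 with a Log2FC of 0.47 (edgeR FDR = 0.0481). With replicate 2 kept, 30 members were DEGs (71.4%, all genes 51.2%), 12 higher (all genes 24.8%) and 18 lower (all genes 26.4%). These included all 3 catalytic subunits and 5 of 6 ATPases as lower, 3 of the 4 non-catalytic beta subunits as higher, and 3 of the 7 alpha subunits, 2 of them higher. Against DMSO, replicate 1 alone gave 1 DEG, Psmb5 (all genes 17%, 8.58% higher and 8.46% lower), and replicate 2 alone gave 29 (69%, all genes 46%), 10 higher (all genes 22.3%) and 19 lower (all genes 23.7%). Each fit compares 1 treated library with the other groups.

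In ONX-0914 replicate 2 the levels of the subunits drew together. Divided by exon length, the 14 core subunits differed 14.4-fold to 20.9-fold between the highest and lowest in the other 6 libraries, with Psmb7 the highest and Psmb3 the lowest in each. In replicate 2 they differed 4.65-fold, with Psma6 the highest and Psmb7 the lowest. The SD of log2 CPM per kb over the core subunits was 1.17 to 1.23 in 6 libraries and 0.64 in replicate 2. Without Psmb7 the corresponding values were 1.01 to 1.06 and 0.61, an alternative chosen after seeing the data. Over the 18 cap subunits the SD was 1.49 to 1.55 in 6 libraries and 0.95 in replicate 2. Over all genes it was 2.02 to 2.12 and 1.93. The subunits of a core particle are present in equal numbers in the protein complex, but their mRNA levels per kb were unequal in all 7 libraries.

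**Figure D4:**
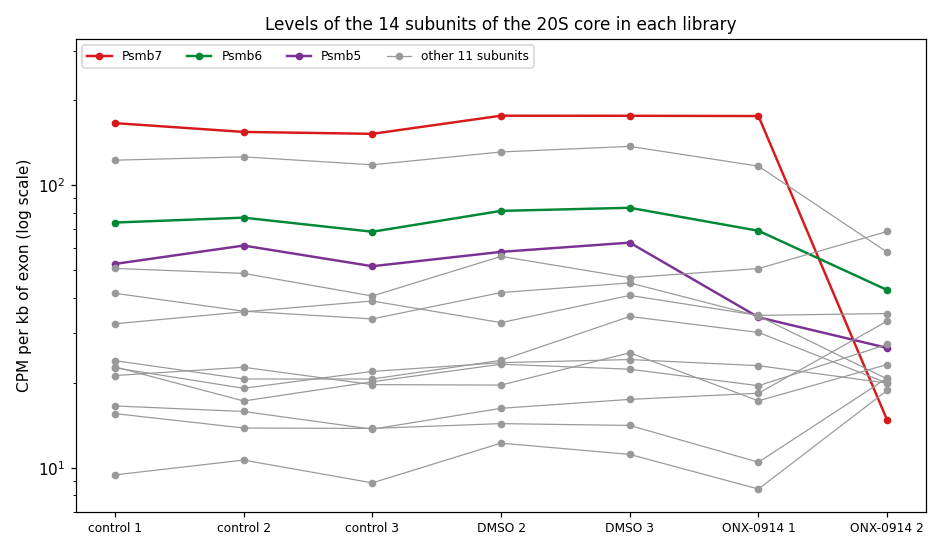
CPM per kb of exon (y axis, log scale) for the 14 subunits of the 20S core in each library, lines joining the values of a subunit. In 6 libraries Psmb7 is the highest and Psmb3 the lowest, and in ONX-0914 replicate 2 the range narrows to 4.65-fold with Psmb7 the lowest.

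The difference in replicate 2 went with the level of the gene. To keep level and difference apart, genes were ordered by their level in the DMSO-treated libraries, which did not enter the difference from control. The 14 most abundant members (130 to 603 CPM) were all lower than the control mean in replicate 2, with a median log2 difference of -0.79. All genes in that range had a median of -0.40, with 1127 lower and 396 higher. The 14 least abundant members (4.96 to 49.1 CPM) had a median of 0.63, with 9 higher and 5 lower. All genes in their range had a median of 0.15, with 3932 higher and 2753 lower. The 14 members of middle level (53.2 to 114 CPM) had a median of 0.066, with 8 higher and 6 lower. In that range all genes had -0.17, with 791 higher and 1255 lower. Across the 42 genes the difference had a Pearson r of -0.75 and a Spearman rho of -0.71 with the level, and across all genes -0.29 and -0.33. In replicate 1 the members gave an r of -0.0040 and all genes -0.20. These coefficients are across genes of the same libraries, which are not independent replicates, and carry no test. Replicate 2 was also the deepest library, and when its counts were thinned to 3764324 the members gave an r of -0.74 and all genes -0.28, an alternative chosen after seeing the data. In the thinned fit 0 members were DEGs, against 0.244% of all genes, and their median Log2FC was -0.10.

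**Figure D5:**
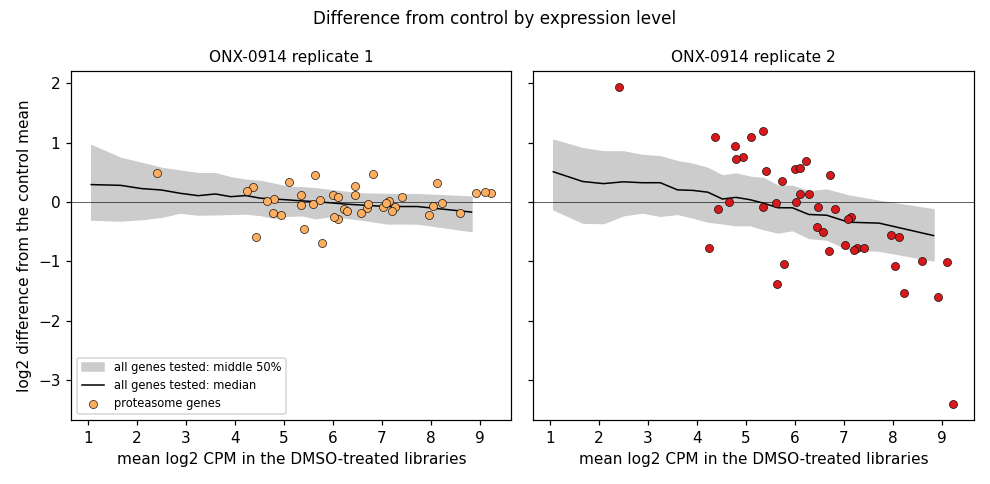
Log2 difference from the control mean (y axis) against the mean log2 CPM in the DMSO-treated libraries (x axis) for ONX-0914 replicate 1 (left) and replicate 2 (right). Dots are the 42 proteasome genes, and the line and band are the median and middle 50% of all genes tested in 20 bins of level. The dots of replicate 2 slope downwards (r = -0.75) and leave the band at both ends.

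The proportions of the catalytic subunits differed between the ONX-0914 libraries. The ratio of Psmb7 to Psmb6 in CPM per kb was 2.25, 2.01 and 2.22 in control, 2.17 and 2.12 with DMSO, 2.55 in ONX-0914 replicate 1 and 0.347 in replicate 2. The ratio of Psmb5 to Psmb6 was 0.714, 0.797 and 0.755 in control, 0.716 and 0.753 with DMSO and 0.494 and 0.624 with ONX-0914. The Psmb5 to Psmb6 ratios of the ONX-0914 libraries were below the other 5, whereas for Psmb7 to Psmb6 this held for replicate 2 alone.

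In control mice the order of the members by level per kb began with Psmc1 (235 ± 4.73 CPM per kb, SD, n = 3), Psmc5 (172 ± 5.76) and Psmb7 (158 ± 7.43). Psmc1 stood apart from Psmc5, while the ranges of Psmc5 and Psmb7 overlapped. At the low end were Psmd5 (3.56 ± 0.019), Psmd9 (2.59 ± 0.39) and Psmg2 (2.103 ± 0.10), whose ranges did not overlap one another. Nfe2l1 ranked 7th of the 42 at 98.9 ± 2.71 CPM per kb. Dividing by the longest transcript in place of the union of exons kept Psmc1 first (285 CPM per kb) and Psmb7 3rd (189), moved Psmb4 from 4th to 2nd (202) and moved Psmc5 to 5th (172). At the low end Psme4 (4.80) then stood between Psmd5 (5.85) and Psmg2 (2.81), with Psmd9 (7.13) above them. Of the 10 most abundant members 9 were shared by both orders.

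In DMSO-treated against control mice no member was a DEG by edgeR, DESeq2 (0.0684% of all genes) or limma voom (0 of all genes), and 0 had an unadjusted p under 0.05. Of all genes 0.0152% were DEGs (0.0076% higher and 0.0076% lower), or 2.65% unadjusted. The median Log2FC of the members was 0.12 and that of all genes -0.0032, with 33 values above 0 and 9 below. Both DMSO-treated libraries were above every control library for 15 members (35.7%, all genes 15.7%) and below for 2, Psmd4 and Psmf1 (4.76%, all genes 15%). The highest Log2FC values were those of Psmg2 (0.43 ± 0.54), Psma3 (0.42 ± 0.24) and Pomp (0.35 ± 0.21), and the lowest those of Psmf1 (-0.23 ± 0.19), Psme4 (-0.17 ± 0.26) and Psmd4 (-0.08 ± 0.21), all with an edgeR FDR of 0.9999. The fit held 1 spread per gene for all 3 groups, so these SEs and FDRs also carry the spread between the ONX-0914 libraries. For Psmb7, at 604 and 603 CPM with DMSO and 521 to 568 CPM in control, the SE was 0.74. With the control and DMSO-treated libraries fitted alone, 0 members were called. Psmf1 was at 28.9, 26.2 and 32.2 CPM in control and 24.7 and 24.99 CPM with DMSO. Every group of subunits and chaperones had a positive median except the 4 non-ATPase base subunits (-0.03) and the activators and inhibitor (-0.17). By library, DMSO replicate 2 was above every control library for 22 members (all genes 27%) and below for 6 (all genes 28%), and replicate 3 above for 27 (all genes 31.2%) and below for 7 (all genes 29.9%). The members' median log2 difference was 0.10 and 0.17 in the DMSO-treated libraries. These libraries also differed from control in markers of other cells, in different lists. The 8 oligodendrocyte markers summed to 7896 CPM in DMSO replicate 2 (3 above every control library) and 9325 CPM in replicate 3 (7 above), against 5063 to 7619 CPM in control. The 8 microglial markers summed to 336 CPM (5 above, 1 below) and 387 CPM (7 above), against 291 to 316 CPM. The 6 endothelial markers summed to 155 CPM (0 above) and 199.5 CPM (6 above), against 148 to 164 CPM. The 6 markers of choroid plexus had 3 above control in replicate 2, and 1 above and 1 below in replicate 3. The 5 blood genes summed to 46.4 CPM in replicate 2, above the control range, and 34.6 CPM in replicate 3, inside it. The 10 thalamic markers had 6 above and 1 below in replicate 2 and 5 above and 5 below in replicate 3, and the 10 striatal markers 5 above and 2 below in replicate 2 and 7 below in replicate 3. Mitochondrially encoded genes took 1.59% of counts in both. The part of these differences in the DMSO result was not tested. The median Log2FC was 0.059 with a correction for gene length.

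Against DMSO, the vehicle control, ONX-0914-treated mice had 0 DEGs among the members by edgeR (0.0456% of all genes, 0.0076% higher and 0.038% lower), 5 at an unadjusted p under 0.05 (14.7% of all genes), and 1 by DESeq2, Psmb5 (all genes 1.86%). The median Log2FC was -0.20 and that of all genes 0.048, with 28 values below 0 and 14 above. Since this comparison uses the same ONX-0914 libraries as that with control, it is no separate evidence for them. The 5 genes were Psma4, Psmb5, Psmb6, Psmc3 and Psmc6, of which Psmc6 was higher. The catalytic subunits gave Log2FC values of -1.002 ± 0.21 for Psmb5, -0.56 ± 0.24 for Psmb6 (edgeR unadjusted p = 0.0445, FDR = 0.331) and -0.89 ± 0.82 for Psmb7 (edgeR FDR = 0.596). The Psmb7 value rested on replicate 2, being -0.0071 with replicate 1 alone and -3.59 with replicate 2 alone. For Psmb6 the corresponding values were -0.25 and -0.96. By limma voom over both ONX-0914 libraries the Psmb7 value was -1.65.

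Of 33 related genes matched in the files 31 were tested, and 0 were DEGs by edgeR in any comparison, with 5, 0 and 5 at an unadjusted p under 0.05 against control, for DMSO and against DMSO (all genes 18.6%, 2.65% and 14.7%). None of the 5 immunoproteasome genes had an unadjusted p under 0.05 against control, and their median Log2FC was -0.12. Psmb8, named here because it is the target of ONX-0914, was at 1.38 to 4.28 CPM in control and at 2.52 and 3.502 CPM with ONX-0914, on 53 counts at most. Psmb10 was at 41.4, 30.3 and 37.2 CPM in control and 30.5 and 27.4 CPM with ONX-0914, with a Log2FC of -0.33 ± 0.21 (edgeR FDR = 0.413). Psmb9 had a Log2FC of -0.35 ± 0.41 (edgeR FDR = 0.663). Among further chaperones, Psmg3 was at 0.545 to 1.43 CPM in control and 2.77 and 4.76 CPM with ONX-0914 (Log2FC 2.13 ± 0.55, edgeR unadjusted p = 0.00438, FDR = 0.133), on 2 to 4 counts per control library. Sem1, a small cap subunit, gave -0.31 ± 0.36 (edgeR FDR = 0.648). Among relatives of Nfe2l1, Nfe2l2 was at 6.77, 7.36 and 6.88 CPM in control, 8.59 and 9.995 CPM with DMSO and 9.56 and 14.01 CPM with ONX-0914 (Log2FC 0.78 ± 0.27, edgeR FDR = 0.2), and its partner Mafg gave 0.46 ± 0.17 (edgeR FDR = 0.21). The ubiquitin shuttle Ubqln2 reached 197 CPM in ONX-0914 replicate 2 and was at 55.9 CPM in replicate 1, within the control range of 51.8 to 71.9 CPM (Log2FC 1.08 ± 0.44, edgeR FDR = 0.245). The proteasome-bound ligase Ube3c gave -0.29 ± 0.16 (edgeR FDR = 0.359).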

How the data were processed

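Counts per gene were deposited by the authors for each library. The submitters' processing notes name Trimmomatic 0.39, STAR 2.7.3a, featureCounts 2.00 and build GRCm39. The libraries were made with a directional kit and sequenced single-end. The strand setting and the gene annotation of the counting are not given in the sources used here. Exons of 8 members share bases with a gene on the opposite strand. These include Psmb7 with Nek6 (1035 counts over the 7 libraries), Psmc3 with Slc39a13 (557) and Psmd13 with Sirt3 (2015). For the rest the other gene had 2 counts at most. The part of these overlaps in the values was not tested. Symbols and exon lengths came from GENCODE M21 and promoters from RefSeq, both on GRCm38. Coordinates are therefore given for the printed promoters alone, on that older build. Reads without a gene, 8.57% to 10.4% per library, were left out of library sizes.

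The members, gene lists and tests were chosen with earlier results of these data known. Values were given for members called in a comparison, for Psmb5, Psmb6, Psmb7, Nfe2l1 and Pomp, for the smallest p in each role, for the 5 highest and 5 lowest Log2FC among members with both ONX-0914 libraries on the same side of control, for the 3 highest and 3 lowest Log2FC with DMSO, for members on opposite sides, and for the 3 highest and 3 lowest by level, and for the 2 smallest p in each related list. CPM of other members were added to account for all 42. In R 4.3.3, edgeR 4.0.16 (filterByExpr, TMM scaling, glmQLFit and glmQLFTest with 1 mean per group over all 7 libraries, Benjamini-Hochberg FDR, threshold 0.05) was the test. CPM values used the same scaled library sizes, which cover the genes tested. Log2 differences used a prior count of 2. SEs are the Log2FC divided by the root of the F statistic. Fits were also run on simulated data in which all libraries had the same spread. That run does not cover the unequal spread of the ONX-0914 libraries. DESeq2 1.42.0 and limma 3.58.1 (voom) were alternatives, as were other scalings and filters, a replicate block, thinning, a length correction and leaving out each library. Totals of 2842675 to 13782270 counts left members with as few as 10 counts in a library, where counting error is largest.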

Additional observations from a re-analysis of the deposited data

Results flagged for a closer look

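Reads that featureCounts assigned to no gene are not part of any comparison above. Their share was 9.24% to 9.36% in the control libraries and 8.57% and 9.22% in the DMSO-treated libraries. It was 10.4% in ONX-0914 replicate 1 and 10.1% in ONX-0914 replicate 2, above every control library, and this is why both are listed here. Which reads they are, and their part in the values of the proteasome genes, was not tested.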

How the results depend on the processing

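The labels do not pair the replicate numbers, and deviations of libraries with the same number had correlations between -0.10 and 0.06. With the replicate block 0 members were called in any comparison, the median Log2FC against control was -0.12, and all genes gave 1, 0 and 0 DEGs against control, for DMSO and against DMSO (15, 2 and 6 without it). DESeq2 called 1 member against control and 1 against DMSO (Psmb5 in both), and the unfiltered fit 1 against control (Psmg2). All genes gave 388, 9 and 245 DEGs by DESeq2, 578, 11 and 297 unfiltered, and 3, 141 and 0 with the compared groups alone. The fit that gave 141 for DMSO holds no ONX-0914 library, so its spread is that of control and DMSO-treated libraries. They gave 32 against control with replicate 2 thinned and 42 with the length correction, and 11 (RLE), 3 (total counts) and 10 (at least 10 counts in every library) against DMSO. Leaving out each library gave 0 to 7023 DEGs against control, 0 to 146 for DMSO and 0 to 6313 against DMSO. It gave 0 to 30 members against control and 0 to 29 against DMSO, the highest without ONX-0914 replicate 1, and median Log2FC of -0.14 to -0.014 and -0.26 to -0.074. Against control the Log2FC then ranged from -3.42 to 0.16 for Psmb7, -1.02 to 0.17 for Nfe2l1, -0.22 to 0.77 for Psmd5 and -0.046 to 1.20 for Psmd8, each changing sign without ONX-0914 replicate 2. Total counts gave medians of 0.074 against control and -0.070 against DMSO, 7 members above and 4 below control, and median log2 differences of 0.084 and 0.063 in ONX-0914 replicates 1 and 2. Leaving out a control library gave 3 to 5 members above (7.14% to 11.9%, all genes 20.8% to 21.7%) and 8 to 11 below control (11 without replicate 3, 26.2%, all genes 19.5%; 9 without replicate 1, 21.4%, all genes 20%; 8 without replicate 2, 19%, all genes 19.3%). The length correction gave -0.14 against control and 0.059 for DMSO. The cause was not tested. Psmb5 kept its direction under these alternatives.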
